A study of Mus musculus with 64 samples.

Results

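The 36 genes described here encode subunits of the receptors for glutamate and for gamma-aminobutyric acid (GABA). They were taken by gene symbol from the table of gene counts, where each symbol occurred once among 48795 genes. They comprise 5 AMPA and delta receptor genes, 5 kainate, 7 NMDA, 6 metabotropic glutamate, 11 GABA-A and 2 GABA-B receptor genes. RNA was sequenced from striatum and cerebral cortex of 32 C57BL/6 mice aged 6 months, 1 library per tissue and mouse. The mice were wild type, Polq+/-, Q140 or Q140 Polq+/-, with 8 mice (4 females and 4 males) of each genotype. Q140 mice have an expanded CAG repeat knocked in to their huntingtin gene, carried on 1 of the 2 copies in both Q140 groups, and is used as a model of Huntington's disease. Polq+/- mice are labelled as lacking 1 copy of Polq, the gene of DNA polymerase theta, a DNA end-joining enzyme. The knock-in and the Polq deletion are carried by every cell of the animal, so no promoter limits them to a cell type. The comparisons asked how the Q140 allele, the loss of a Polq copy and both together changed receptor gene expression in each tissue.

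As background, glutamate is the main excitatory and GABA the main inhibitory transmitter of the brain. AMPA, kainate and NMDA receptors are ion channels opened by glutamate, metabotropic glutamate receptors signal through G proteins, GABA-A receptors are chloride channels, and GABA-B receptors are G-protein-coupled dimers. The principal cells of the striatum are GABA-releasing spiny projection neurons, which receive glutamate from cortex and thalamus and are the cells most affected in Huntington's disease.

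Total gene counts ran from 28.7 to 40.6 M per striatal library and from 30.9 to 40.1 M per cortical library. CPM are gene counts per M counts of the library, scaled by the TMM method, and FPKM are the deposited values per kilobase of gene. Polq was lower in mice labelled Polq+/- (median 1.7 CPM in striatum) than in wild-type mice (3.1 CPM), and in 4 mice labelled as lacking a Polq copy it was at or below 0.38 CPM in striatum. Those 4 were Polq+/- male 3 and Q140 Polq+/- female 3, female 4 and male 3. Markers of spiny neurons were abundant in striatum, where their summed level had medians of 9440 CPM in wild type, 9446 in Polq+/-, 5576 in Q140 and 5671 in Q140 Polq+/- mice. In cortex the same 8 markers summed to 197 to 275 CPM over all mice, while 6 markers of cortical excitatory neurons summed to 1636 to 1927 CPM. In all, 3 libraries from striatum of mice without Q140 stood apart and are left out in the values given as "without the libraries that stand apart". In the fit that joined both tissues, the cortical libraries of the same 3 mice were left out too. Wild-type male 2 had 224 CPM of cerebellar granule cell markers and 30.3 CPM of cortical excitatory markers, against wild-type medians of 22.8 and 4.46 CPM. Polq+/- female 3 had 1396 CPM of choroid plexus markers against a group median of 33.3 CPM. Wild-type male 3 had the lowest level among wild-type mice of several members named below. Leaving out a control with low values makes the Q140 differences of those members more negative. Values given without male 3 are therefore no independent support for a fall.

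Promoter sequences of 4 members are shown because these genes carry the findings that follow: Grik2 and Gabra4 fell in the Q140 striatum, while Gabra5 and Gabrb2 rose. The windows run from 250 bases before to 50 bases after the annotated start, 5′ to 3′ on the gene's strand, from RefSeq on GRCm38.p6. Capitals mark a GC box (GGGCGG or CCGCCC), a half-site of the cyclic AMP response element (TGACG or CGTCA) or a TATA box (TATAAA or TTTATA), searched on both strands.
Grik2, chr10:49788705-49789004, minus strand: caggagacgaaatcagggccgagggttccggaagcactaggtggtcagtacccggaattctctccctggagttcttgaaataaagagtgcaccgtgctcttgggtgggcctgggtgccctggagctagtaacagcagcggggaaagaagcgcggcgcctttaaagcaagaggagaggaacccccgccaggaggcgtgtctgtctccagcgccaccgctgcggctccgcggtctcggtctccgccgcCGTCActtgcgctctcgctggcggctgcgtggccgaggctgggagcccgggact
Gabra4, chr5:71658259-71658558, minus strand: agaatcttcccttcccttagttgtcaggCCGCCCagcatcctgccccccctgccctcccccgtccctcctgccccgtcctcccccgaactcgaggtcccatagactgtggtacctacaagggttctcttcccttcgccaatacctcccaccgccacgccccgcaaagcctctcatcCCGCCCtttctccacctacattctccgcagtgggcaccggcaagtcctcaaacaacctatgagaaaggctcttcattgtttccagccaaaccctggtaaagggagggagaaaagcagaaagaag
Gabra5, chr7:57510010-57510309, minus strand: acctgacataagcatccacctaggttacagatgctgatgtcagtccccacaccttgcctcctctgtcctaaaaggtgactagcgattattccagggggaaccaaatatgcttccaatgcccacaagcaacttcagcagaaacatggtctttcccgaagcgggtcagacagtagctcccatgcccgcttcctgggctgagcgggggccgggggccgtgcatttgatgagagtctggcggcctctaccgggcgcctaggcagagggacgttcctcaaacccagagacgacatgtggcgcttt
Gabrb2, chr11:42420190-42420489, plus strand: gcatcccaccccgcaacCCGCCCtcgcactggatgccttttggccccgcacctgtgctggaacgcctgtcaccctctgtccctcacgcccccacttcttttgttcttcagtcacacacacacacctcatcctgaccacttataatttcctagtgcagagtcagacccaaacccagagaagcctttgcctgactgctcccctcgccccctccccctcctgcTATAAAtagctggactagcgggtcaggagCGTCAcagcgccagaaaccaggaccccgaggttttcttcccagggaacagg

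The promoter table held 33 windows for 26 of the 36 members, and no window was used for Gabrd, Gria1, Gria3, Grid1, Grik1, Grin2a, Grin2b, Grin3a, Grm4 and Grm5. A GC box was present in 54.5% of the member windows and in 35.7% of all 32851 windows of this length. The half-site was present in 12.1% of member windows and 20.8% of all windows, and the TATA box in 12.1% and 13.6%. The Gabra4 window held 2 GC boxes, the Grik2 window 1 half-site, the Gabrb2 window shown 1 of each of the 3 motifs, and the Gabra5 window none of them. Gabrb2 has 2 further windows in the table, which are not shown and hold none of these motifs. The median GC content was 61% in member windows and 52.7% in all windows.

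Several GABA-A receptor genes are neighbours in the genome (GRCm38, GENCODE release M21). Gabrg1 (chr5:70751047-70842617), Gabra2 (chr5:70957597-71095849), Gabra4 (chr5:71569749-71658308) and Gabrb1 (chr5:71658113-72149037) lie side by side on chromosome 5. Gabra4 and Gabrb1 start from opposite strands and their exons share 46 bases. Gabrg3 and Gabra5 are neighbours on chromosome 7, and Gabre, Gabra3 and Gabrq lie within a short stretch of chromosome X. Exon bases of 16 members overlapped another annotated gene, and whether counting used strand is not stated in the sources used. The largest overlap was that of Grin3b, with 32.1% of its exon bases shared with Tmem259 on the opposite strand, followed by Grin1 with 13.5% shared with Grin1os. Counts of these genes, Grin3b above all, may include reads of the partner or lack reads that fell on shared bases. Which of these applies depends on the counting settings and was not tested.

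Levels per gene length were compared first in wild-type mice. In striatum the highest mean FPKM belonged to Gabbr1, the ligand-binding GABA-B subunit, at 127 ± 4.13 (SD, n = 8), followed by Gria1, an AMPA subunit, at 87.6 ± 4.89. Grin1, the obligatory NMDA subunit, followed at 79 ± 5.21 FPKM. Gria2, the AMPA subunit that limits calcium entry, was at 62.2 ± 3.13 FPKM and Grik5, a kainate subunit that needs a partner subunit, at 60.5 ± 3.99 FPKM. The ranges of Gria1 (76.9 to 93.8 FPKM) and Grin1 (70.4 to 85.4 FPKM) overlapped, as did those of Gria2 (57 to 65.8) and Grik5 (52.1 to 64.4). Gabrd, the GABA-A delta subunit found outside synapses, reached 54.4 ± 2.18 FPKM. At the other end, Gabre, Gabrq, Grin3b, Grm2 and Grik1 had striatal means of 0.0781, 0.206, 0.224, 0.289 and 0.419 FPKM. These low values rested on few reads, with 9 to 25 counts of Gabre and 17 to 34 counts of Grin3b per wild-type striatal library.

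The receptor repertoire of striatum differed from that of cortex in the same wild-type mice. In a fit that joined the 64 libraries and blocked on the mouse, 34 of 36 members passed (adjusted p under 0.05, edgeR), 20 higher and 14 lower in striatum. The share among all genes tested was 77.1%, with 39% higher and 38.1% lower. The largest excess in striatum was that of Grik2, a kainate subunit, at 3.91-fold (log2 1.97 ± 0.03 SE), with 19.4 against 4.89 FPKM. Gabrq was 3.46-fold higher, Grm4 3.34-fold, Gabre 2.89-fold and Grm5 2.88-fold, with Gabrq and Gabre at the low levels given above. Grm5 couples to Gq proteins, and Grm4 is a presynaptic receptor that couples to Gi proteins.

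Members lower in striatum were led by Grm2, a Gi-coupled receptor, with 0.289 FPKM in striatum and 16.7 FPKM in cortex (log2 -5.86 ± 0.10). Gabbr2, the G-protein-coupling partner of Gabbr1, was at 12 FPKM in striatum and 70.7 FPKM in cortex (log2 -2.59 ± 0.04), while Gabbr1 itself was 1.19-fold higher in striatum. Gabra3 was at 6.44 and 36.7 FPKM (log2 -2.54 ± 0.05), Grik1 was lower by 1.95 on the log2 scale (-1.95 ± 0.12), and Grik4, Gabra5 and Grin2a had log2 differences of -1.35, -1.31 and -1.26. Grin2b and Gabrb1 did not pass (log2 0.11 and 0.07, adjusted p = 0.153 and 0.119, edgeR). Without the libraries that stand apart, 21 members were higher and 13 lower, and Grin1 (log2 -0.04, adjusted p = 0.106) and Gabrg1 (0.12, adjusted p = 0.0633) no longer passed. Grin2b and Gabrb1 then passed as higher in striatum, with wild-type male 3, low in both genes, left out.

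In striatum, 19 of 36 members differed between Q140 and wild-type mice, 6 higher and 13 lower (edgeR, adjusted p under 0.05). Among all 18270 genes tested 32.1% were called, 16.9% higher and 15.2% lower. Between Q140 Polq+/- and Polq+/- mice, which share no library with the first comparison, 19 members were called, 4 higher and 15 lower, against a background of 31.4% (16.1% higher, 15.3% lower). Of these, 12 members fell in both comparisons: Gria3, Grid1, Grik2, Grik5, Grin1, Grin2c, Grm2, Grm3, Grm4, Grm5, Gabra4 and Gabrd. Another 4 rose in both: Grik4, Grm8, Gabra5 and Gabrb2. Of all genes tested 11.5% fell in both and 11.9% rose in both. No member was called in opposite directions, nor was any other gene, 3 were called only against wild type (Gria1, Gria4, Gabra3), 3 only against Polq+/- (Grin2b, Grin3b, Gabbr1), and 14 in neither. Without the 4 mice of low Polq the second comparison gave 4 higher and 12 lower, and Grin2b, Grin2c and Grm2 were no longer called (adjusted p = 0.0868, 0.0875 and 0.0698, edgeR). With both comparisons averaged (Q140 carriers against non-carriers, 16 mice each), 24 members were called, 8 higher and 16 lower, against a background of 44.8% (23.6% higher, 21.2% lower). The median log2 fold change of the 36 members was -0.06 in this average and 0.00317 over all genes tested.

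The balance of rises and falls depended on the scale. On deposited FPKM, which are not scaled for library composition, 11 members were higher and 13 lower in carriers, 10 and 8 in Q140 against wild type, and 8 and 11 in Q140 Polq+/- against Polq+/-. Of all genes called on FPKM in carriers 75% were higher, against 52.6% with TMM scaling, and the median over all genes was 0.0652. Without the libraries that stand apart, TMM-scaled counts gave 8 higher and 18 lower in carriers, 6 and 16 in Q140, and 5 and 17 in Q140 Polq+/- mice. Spiny neuron markers moved with these results: 7 of 8 fell and 1 (Tac1, log2 0.11) rose in carriers, and their median log2 fold change was -0.63. All 5 microglial and all 5 endothelial markers also fell, with medians of -0.12 and -0.19. In bulk tissue fewer cells of a type and less RNA per cell cannot be told apart, and the part of these markers in the receptor results was not tested.

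**Figure D1:**
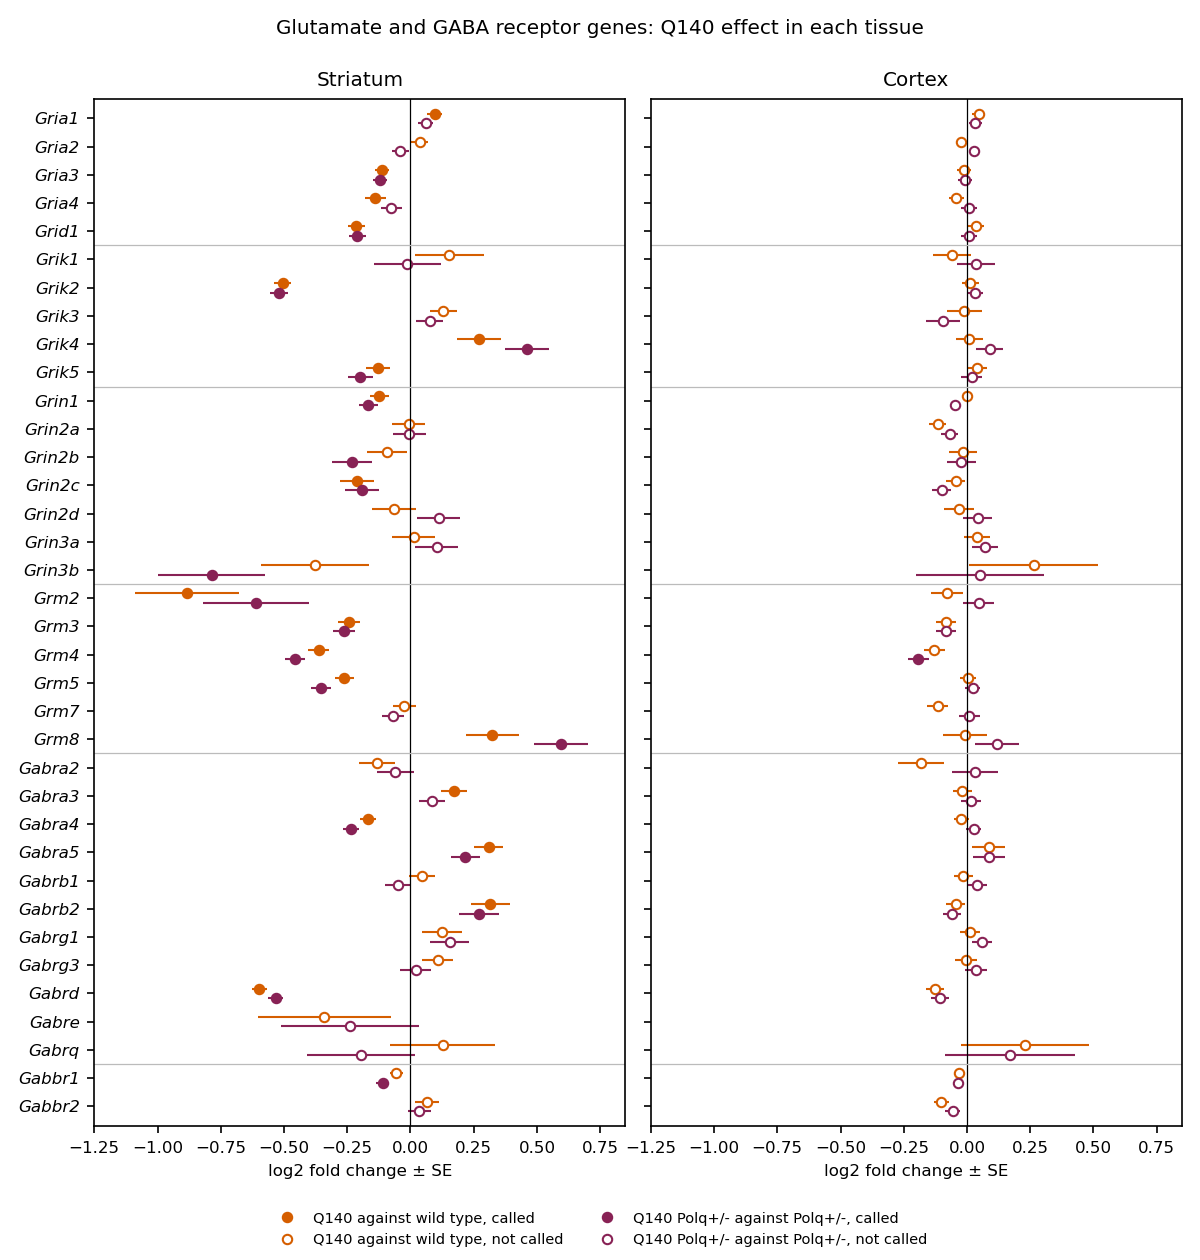
Log2 fold change ± SE (horizontal axis) of each receptor gene in striatum (left) and cortex (right) for Q140 against wild type (orange) and Q140 Polq+/- against Polq+/- (purple), 8 mice per group. Filled points passed an adjusted p under 0.05 (edgeR): 19 in each striatal comparison, and 0 and 1 in the cortical comparisons, while Gabre was not tested in cortex.

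Of the AMPA and delta receptor genes, 3 fell, 1 rose and 1 was not called in striatum of Q140 carriers. Of all genes tested in this comparison 21.2% fell and 23.6% rose. Grid1, which encodes a delta receptor subunit that organizes synapses, ranged from 96.5 to 122.2 CPM (median 107.2) in wild type and from 88.3 to 99.3 CPM (91.4) in Q140 mice. It ranged from 103.2 to 112.4 CPM (109) in Polq+/- and from 88.4 to 98.4 CPM (94.9) in Q140 Polq+/- mice. The first pair of groups overlapped at its edges and the second did not overlap. Of all genes tested, 8.25% did not overlap between Q140 and wild-type mice. Between Q140 Polq+/- and Polq+/- mice the share was 11.5%. Grid1 fell by 13.8% in Q140 (log2 -0.21 ± 0.03 SE, adjusted p = 5.73e-06) and by 13.6% in Q140 Polq+/- mice (adjusted p = 7.52e-06, edgeR).

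Gria3, an AMPA subunit encoded on the X chromosome, had medians of 239.9 CPM (209.9 to 251.8) in wild type, 239.3 CPM (231 to 251.5) in Polq+/-, 220.3 CPM (210 to 225.6) in Q140 and 220.7 CPM (216.5 to 226.5) in Q140 Polq+/- mice. The lowest wild-type value, 209.9 CPM, lay below every Q140 mouse. Its log2 fold changes were -0.11 ± 0.03 (adjusted p = 0.00125) and -0.12 ± 0.03 (adjusted p = 0.000653, edgeR). On deposited FPKM these were -0.05 in both and narrowly failed (adjusted p = 0.0532 and 0.0591, limma).

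Gria1, a subunit that brings AMPA receptors to the synapse during potentiation, went the other way. It ranged from 460.7 to 586 CPM (median 545.7) in wild type and from 561.8 to 599.1 CPM (577.1) in Q140 mice, and the medians were 547.6 and 574.7 CPM in Polq+/- and Q140 Polq+/- mice. It rose by 6.82% in Q140 (adjusted p = 0.012), a call that ended without the libraries that stand apart (log2 0.05, adjusted p = 0.0545), and by 5.57% in all carriers (adjusted p = 0.00231, edgeR). Gria4 had medians of 91.2 CPM (83.8 to 113.5) in wild type, 83.7 CPM (77.1 to 88.6) in Q140, 90.4 CPM (86.1 to 93.9) in Polq+/- and 85 CPM (80 to 91.1) in Q140 Polq+/- mice, with overlap in both comparisons. It fell by 7.2% in carriers (adjusted p = 0.00272), but not on FPKM (adjusted p = 0.281). Gria2 was not called (log2 -0.00 ± 0.02 in carriers, adjusted p = 0.951), although on FPKM it was higher (log2 0.06, adjusted p = 0.0116).

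Among the 5 kainate receptor genes, 2 fell and 2 rose in carriers, against 21.2% and 23.6% of all genes tested. Grik2 had the smallest p of this class. It ranged from 144.3 to 173.6 CPM (median 167.7) in wild type, from 158.8 to 177.4 CPM (165.3) in Polq+/-, from 107.8 to 120.4 CPM (117.7) in Q140 and from 107.5 to 124.5 CPM (115.9) in Q140 Polq+/- mice. Every carrier lay below every non-carrier, as also for Grm4 and Gabrd, and 4.82% of all genes tested did not overlap in this way. The fall was 29.5% in Q140 (log2 -0.51 ± 0.03, adjusted p = 1.83e-14) and 30.2% in Q140 Polq+/- mice (log2 -0.52 ± 0.03, adjusted p = 9.15e-15, edgeR). In cortex Grik2 was lower than in striatum and was not called, with medians between 40.9 and 42.2 CPM in the 4 genotypes.

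Grik5, which assembles with Grik2 into high-affinity kainate receptors, ranged from 272.6 to 342 CPM (median 326.9) in wild type, from 274.6 to 373.5 CPM (342.6) in Polq+/-, from 260.6 to 340 CPM (291.1) in Q140 and from 278.2 to 305.3 CPM (287.6) in Q140 Polq+/- mice, so the groups overlapped widely. It fell by 8.54% in Q140 (adjusted p = 0.0397) and by 12.8% in Q140 Polq+/- mice (adjusted p = 0.00158). The Q140 call held in 23 of the 32 fits that each left out 1 striatal library, the largest adjusted p being 0.0918 without wild-type female 1. It also ended on FPKM (log2 -0.07, adjusted p = 0.259, limma), with no low-count filter (adjusted p = 0.0701) and with only the groups compared in the fit (adjusted p = 0.0564, edgeR). Grik4, the other high-affinity subunit, rose from a low level: medians were 8.3 CPM (7.5 to 12) in wild type, 10.4 CPM (9.7 to 11.9) in Q140, 8.5 CPM (7.5 to 9.5) in Polq+/- and 11.4 CPM (9.8 to 15.8) in Q140 Polq+/- mice. The 12 CPM of wild-type male 2 lay above all Q140 mice, whereas Polq+/- and Q140 Polq+/- mice did not overlap (11.5% of all genes tested). Its log2 fold changes were 0.27 ± 0.09 (adjusted p = 0.0151) and 0.46 ± 0.09 (adjusted p = 6.07e-05, edgeR). Grik3 rose by 7.41% in carriers (adjusted p = 0.0255), from medians of 152.8 CPM (107.4 to 169.3) in wild type and 155 CPM (140.5 to 163.3) in Polq+/- to 160.9 CPM (153.3 to 176.9) in Q140 and 164.4 CPM (152.9 to 173) in Q140 Polq+/- mice. Grik1, at about 3 CPM in striatum, was not called.

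NMDA receptor genes moved in 1 direction only where they were called: 4 of 7 fell and none rose in carriers. The shares over all genes tested were 21.2% and 23.6%. Grin1 ranged from 677 to 863.9 CPM (median 793.4) in wild type and from 687.3 to 755.1 CPM (716.5) in Q140 mice, and from 751.6 to 867.6 CPM (815.5) in Polq+/- and 707.3 to 738.4 CPM (721.2) in Q140 Polq+/- mice. The second pair did not overlap, as for 11.5% of all genes tested. It fell by 8.16% (adjusted p = 0.00844) and 10.9% (adjusted p = 0.000454, edgeR), but the Q140 difference was not called on FPKM (log2 -0.06, adjusted p = 0.126). Grin2c, a subunit found mainly in glia and cerebellar granule cells, had medians of 65.2 CPM (56.3 to 89.2) in wild type, 57.4 CPM (54.6 to 60.2) in Q140, 63.8 CPM (57.1 to 75.8) in Polq+/- and 57.2 CPM (50.3 to 65.1) in Q140 Polq+/- mice. It fell by 13% in carriers (adjusted p = 0.000793), and its highest wild-type value was in male 2, the library with cerebellar granule cell markers. Without male 2 the Q140 difference was -0.14 on the log2 scale in place of -0.21 and was still called (adjusted p = 0.0354). The difference in Q140 Polq+/- mice (log2 -0.19, adjusted p = 0.0301) held in 27 of 32 such fits, and ended on FPKM (adjusted p = 0.149) and without the 4 mice of low Polq.

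Grin2b, an NMDA subunit of forebrain neurons, ranged from 311.7 to 617.5 CPM (median 563.3) in wild type and from 465.2 to 543 CPM (504.1) in Q140 mice. In Polq+/- mice it ranged from 540.5 to 665.7 CPM (601.9) and in Q140 Polq+/- mice from 459.8 to 546.9 CPM (528.1). The lowest value was that of wild-type male 3, and the other 7 wild-type mice began at 547 CPM, above all Q140 mice. With male 3 the Q140 difference was not called (log2 -0.09 ± 0.08, adjusted p = 0.416), and without male 3 it was -0.18 (adjusted p = 0.000599, edgeR). The difference between Q140 Polq+/- and Polq+/- mice was called (log2 -0.23 ± 0.08, adjusted p = 0.0262). This call ended on FPKM (-0.16, adjusted p = 0.104, limma), with no low-count filter (adjusted p = 0.0522) and without the 4 mice of low Polq, and it held in 29 of 32 fits that left out 1 library (adjusted p = 0.0573 without Q140 Polq+/- male 2, edgeR). Grin3b fell by 33.2% in carriers (adjusted p = 0.00164), from medians of 0.8 CPM in both groups without Q140 to 0.6 CPM in both groups with it, on the few reads and the overlap given above. Grin2a, Grin2d and Grin3a were not called, with log2 fold changes in carriers of -0.01, 0.02 and 0.06. The 7 other wild-type libraries had 98.8 to 116 CPM of Grin2a and male 3 had 69.3 CPM.

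Of the metabotropic glutamate receptor genes, 4 of 6 fell and 1 rose in carriers, against 21.2% and 23.6% of all genes tested. Their median log2 fold change was -0.28. Grm5 ranged from 392.9 to 528.7 CPM (median 503.2) in wild type, from 472.9 to 538 CPM (514.5) in Polq+/-, from 381.9 to 424.7 CPM (411.7) in Q140 and from 374.9 to 427.9 CPM (402.8) in Q140 Polq+/- mice. One wild-type mouse, at 392.9 CPM, fell within the Q140 range and the others lay above it. Grm5 fell by 16.6% in Q140 (log2 -0.26 ± 0.04, adjusted p = 1.55e-06) and by 21.7% in Q140 Polq+/- mice (log2 -0.35 ± 0.04, adjusted p = 3.45e-09, edgeR).

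Grm4 separated carriers from non-carriers without overlap in striatum. Its medians were 117.6 CPM (96.9 to 121.7) in wild type, 118.8 CPM (110 to 126.5) in Polq+/-, 89.5 CPM (80.6 to 96.4) in Q140 and 87.9 CPM (78.4 to 92.2) in Q140 Polq+/- mice. It fell by 22.3% (adjusted p = 4.02e-09) and 27.1% (adjusted p = 1.75e-11, edgeR). Grm3, a Gi-coupled receptor also made by astrocytes, ranged from 77.7 to 101.7 CPM (median 89.8) in wild type and from 71.8 to 81 CPM (76.7) in Q140 mice, and had medians of 91.3 CPM (85.5 to 101.4) and 77.7 CPM (71.7 to 83.1) in Polq+/- and Q140 Polq+/- mice. It fell by 15.5% (adjusted p = 2.45e-05) and 16.7% (adjusted p = 6.32e-06). Of 5 astrocyte markers, 1 fell in carriers and the other 4 were not called.

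Grm8, a presynaptic Gi-coupled receptor, was the metabotropic gene that rose. Its medians were 7.8 CPM (6.5 to 11.3) in wild type, 7.8 CPM (6.2 to 8.8) in Polq+/-, 10 CPM (7.4 to 14.2) in Q140 and 11.4 CPM (9.8 to 14) in Q140 Polq+/- mice. The Q140 and wild-type ranges overlapped and the other pair did not. The shares of all genes tested without overlap were 8.25% and 11.5%. The log2 fold changes were 0.32 ± 0.11 (adjusted p = 0.018) and 0.60 ± 0.11 (adjusted p = 3.61e-05, edgeR), and the first was lost when Q140 male 1 was left out (0.25, adjusted p = 0.0618). Grm2 fell by 40.4% in carriers (log2 -0.75 ± 0.15, adjusted p = 6.17e-05) at a striatal level near 1 CPM, with medians of 1.4 CPM in wild type, 1.1 in Polq+/- and 0.8 in both Q140 groups. Its highest striatal value, 2.2 CPM, was in wild-type male 2, the library with the most cortical excitatory markers. The part of adjoining cortex in the Grm2 counts was not tested. Grm7 was not called in carriers (log2 -0.05 ± 0.03, adjusted p = 0.236) and was called as lower without wild-type male 3 (-0.07, adjusted p = 0.00844).

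**Figure D2:**
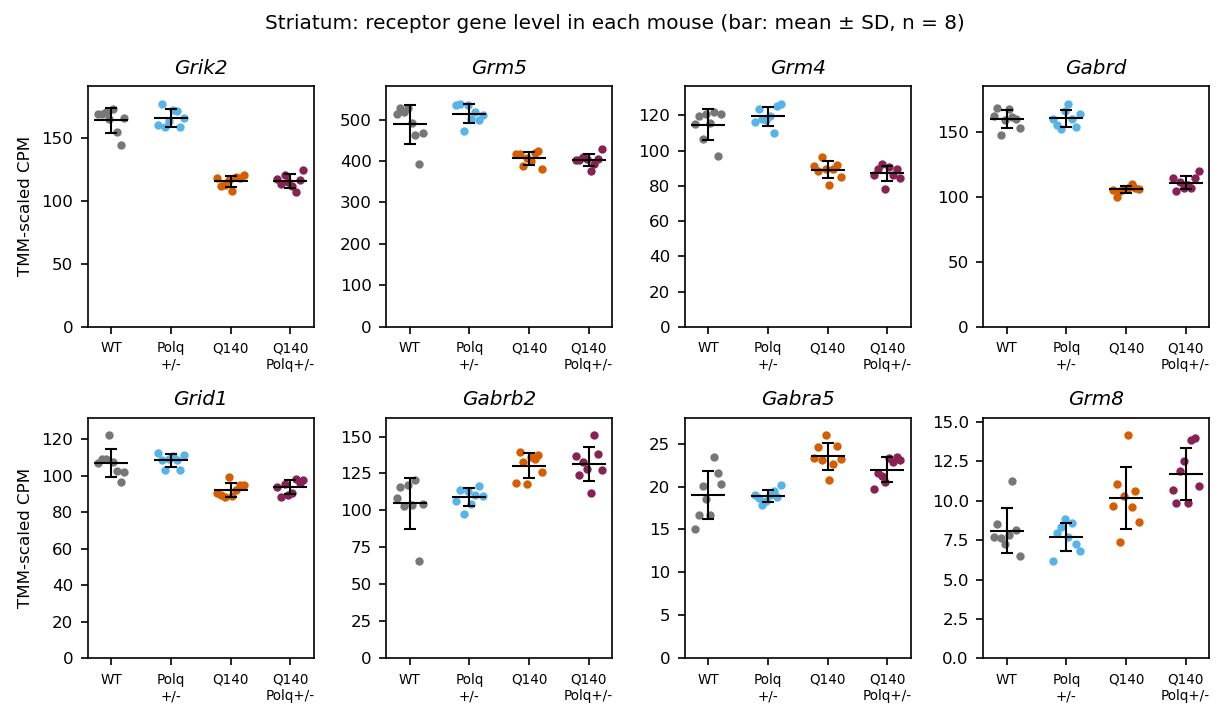
TMM-scaled CPM (vertical axis, from 0) of 8 receptor genes in striatum of each mouse by genotype, with the mean ± SD of 8 mice. Grik2, Grm4 and Gabrd separate the 16 Q140 carriers from the 16 other mice without overlap, while Gabrb2, Gabra5 and Grm8 are higher in Q140 carriers with overlapping ranges.

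GABA-A receptor genes moved in both directions: 2 of 11 fell and 4 rose in carriers, against 21.2% and 23.6% of all genes tested. Gabrd showed the smallest p of all members. It ranged from 147.7 to 168.2 CPM (median 160.6) in wild type, from 152 to 171.4 CPM (159.9) in Polq+/-, from 100.1 to 110 CPM (105.9) in Q140 and from 104.1 to 119.5 CPM (109.9) in Q140 Polq+/- mice. Carriers and non-carriers were far apart. The fall was 33.9% in Q140 (log2 -0.60 ± 0.03, adjusted p = 6.14e-18) and 30.9% in Q140 Polq+/- mice (log2 -0.53 ± 0.03, adjusted p = 6.22e-17, edgeR). Gabra4, an alpha subunit that assembles with the delta subunit in striatum, had medians of 248.3 CPM (226.7 to 268.5) in wild type, 249.8 CPM (233.4 to 270.6) in Polq+/-, 218.6 CPM (212.4 to 232.6) in Q140 and 213.8 CPM (202.7 to 226.4) in Q140 Polq+/- mice. It fell by 11% (adjusted p = 6.38e-05) and 15.1% (adjusted p = 2.16e-07), less than Gabrd in both.

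The rises were in other subunits. Gabrb2, a beta subunit, ranged from 65.5 to 120.6 CPM (median 106.3) in wild type, from 97.4 to 116.3 CPM (109.9) in Polq+/-, from 118 to 139.2 CPM (133.9) in Q140 and from 112 to 150.8 CPM (130.6) in Q140 Polq+/- mice. Most carriers lay above all non-carriers. It rose by 24.5% (log2 0.32 ± 0.08, adjusted p = 0.00218) and 20.6% (log2 0.27 ± 0.08, adjusted p = 0.00802, edgeR). The lowest wild-type value, 65.5 CPM, was again that of male 3.

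Gabra5, an alpha subunit of extrasynaptic receptors best known from hippocampus, had medians of 19.3 CPM (15.1 to 23.4) in wild type, 18.9 CPM (17.9 to 20.1) in Polq+/-, 23.3 CPM (20.8 to 26) in Q140 and 22.2 CPM (19.7 to 23.4) in Q140 Polq+/- mice. It rose by 24% (adjusted p = 4.71e-05) and 16.2% (adjusted p = 0.00316, edgeR). Gabra3 and Gabrg1 rose by 9.36% (adjusted p = 0.00401) and 10.2% (adjusted p = 0.0366) in carriers, and the Gabrg1 call held in 19 of the 32 fits that each left out 1 library. Gabra2, Gabrb1, Gabrg3, Gabre and Gabrq were not called, with log2 fold changes in carriers of -0.10, -0.00, 0.06, -0.29 and -0.03. The Gabra2 value was -0.06 without wild-type female 2 (adjusted p = 0.252), and -0.12 and called without wild-type female 1 (adjusted p = 0.0494, edgeR). On chromosome 5 the neighbours Gabra4 and Gabrb1, whose exons overlap, thus had log2 values of -0.20 ± 0.02 and -0.00 ± 0.04.

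Of the GABA-B receptor genes, Gabbr1 was called in carriers and Gabbr2 was not. Gabbr1 had medians of 1005.5 CPM (904.2 to 1057.4) in wild type, 967.2 CPM (932.9 to 995.6) in Q140, 1015.8 CPM (1002.3 to 1073.7) in Polq+/- and 950.8 CPM (927.8 to 972) in Q140 Polq+/- mice, and the last 2 groups did not overlap (11.5% of all genes tested). It fell by 5.58% in carriers (adjusted p = 0.000272) and fell by 7.32% in Q140 Polq+/- mice (adjusted p = 0.000974), and was not called in Q140 mice (log2 -0.06 ± 0.03, adjusted p = 0.0958, edgeR). Without wild-type male 3 the Q140 difference was called (-0.08, adjusted p = 0.00217), and on FPKM it was 0.00 (adjusted p = 0.869). On FPKM the calls in Q140 Polq+/- mice and in all carriers also ended (adjusted p = 0.0857 and 0.275, limma). Gabbr2 had medians of 83.9 CPM (60.3 to 89.1) in wild type, 85.9 CPM (83.2 to 89.1) in Q140, 82.9 CPM (80.3 to 90.1) in Polq+/- and 84.7 CPM (79.1 to 90.3) in Q140 Polq+/- mice, with ranges that overlapped throughout. It was not called in carriers (log2 0.05 ± 0.03, adjusted p = 0.229), but was higher on FPKM (log2 0.12, adjusted p = 0.00288).

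Where a receptor gene was expressed and how it differed with Q140 were set side by side. The wild-type difference between tissues was compared with the striatal difference between Q140 Polq+/- and Polq+/- mice, since these share no library. Of the 20 members higher in striatum than in cortex, 11 fell and 0 rose, and their median log2 fold change was -0.20. Of the 14 members lower in striatum, 3 fell and 4 rose, with a median of 0.06. Over all genes the direction was alike: of 7436 genes higher in striatum 24.6% fell and 10.3% rose, and of 6671 genes lower in striatum 9.79% fell and 25.6% rose. Across the 36 members Spearman's rho was -0.569 and Pearson's r -0.238, and across all 18269 genes they were -0.271 and -0.268. For Q140 against wild type, 9 of the 20 members higher in striatum fell and 1 rose. Of the 14 lower in striatum, 4 fell and 5 rose. Over all genes, 24.3% of those higher in striatum fell and 11.4% rose, and 9.59% and 26.3% of those lower in striatum. The members' rho was -0.467 and r -0.0419 for Q140 against wild type, and over all genes they were -0.267 and -0.251. This comparison shares the wild-type striatal libraries with the tissue difference, which alone can make the coefficients negative. By r the members did not exceed all genes in either comparison, whereas by rho they were farther below 0 than all genes in both. These coefficients are descriptions across genes, which share libraries and are not independent replicates. Members high in striatum that were not called in Q140 Polq+/- against Polq+/- mice included Gria1, Grik3 and Gabrg3, with log2 values of 0.06, 0.08 and 0.02. Gria1 was called as higher in Q140 against wild type.

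**Figure D3:**
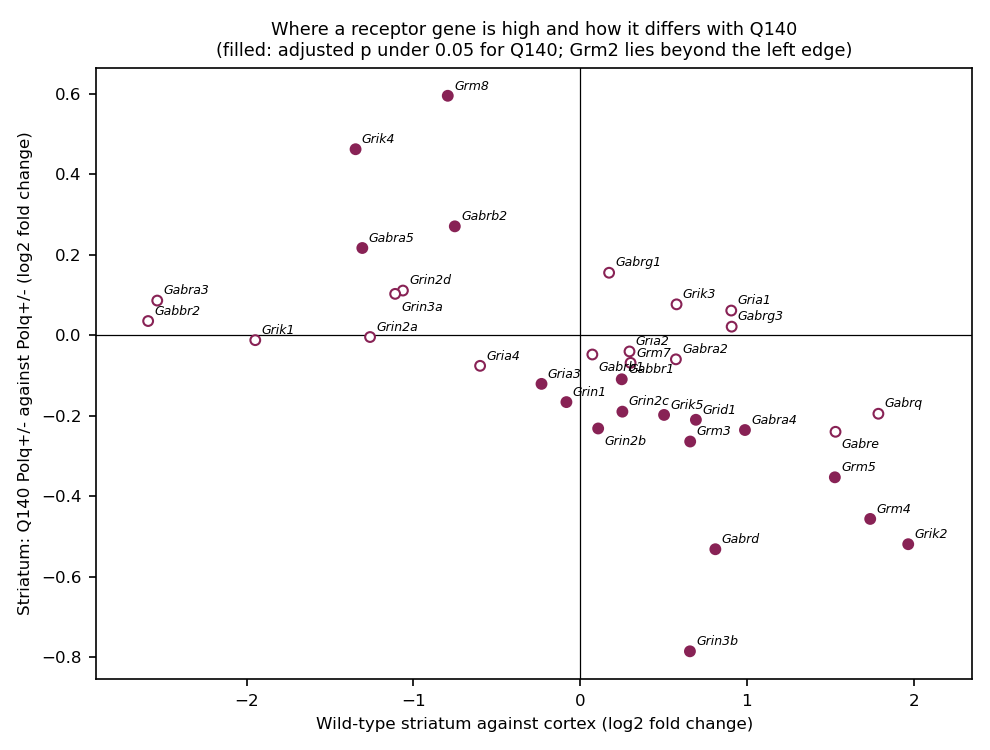
Each point is 1 receptor gene. The horizontal axis gives the wild-type log2 fold change of striatum against cortex and the vertical axis the striatal log2 fold change of Q140 Polq+/- against Polq+/- mice, with called genes filled. Grik2, Grm4, Grm5 and Gabra4 lie at the lower right and Grik4, Gabra5, Grm8 and Gabrb2 at the upper left, while Grm2, at -5.86, is beyond the left edge.

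Ratios of subunits that can replace or join each other were then compared within each library. Such a ratio does not depend on library scaling. For 8 pairs, 2 comparisons and 2 tissues, 17 of 32 tests passed (exact two-sided permutation of genotype within sex, adjusted over the 32 tests). In striatum 5 of 8 pairs passed in Q140 against wild type and 8 of 8 in Q140 Polq+/- against Polq+/-. In cortex 3 and 1 of 8 passed. A ratio moves when either of its genes does, and ratios of other gene pairs were not tested as a background. Of all single genes tested, 32.1% and 31.4% were called in the 2 striatal comparisons (edgeR).

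The ratio of Gabra5 to Gabra4 was 0.155 in wild type and 0.217 in Q140 mice as geometric means of FPKM ratios, a log2 difference of 0.48 (exact permutation p = 0.00122, adjusted p = 0.0049). In Polq+/- and Q140 Polq+/- mice it was 0.154 and 0.21 (log2 difference 0.45, exact permutation p = 0.000408, the smallest it can give), and these 2 groups did not overlap. The ratio of Gabrb1 to Gabrb2 fell from 0.621 to 0.512 (log2 -0.28, exact adjusted p = 0.0058) and from 0.639 to 0.513 (log2 -0.32, exact adjusted p = 0.00327). The ratio of Grik1 to Grik2 rose from 0.0212 to 0.0338 and from 0.0269 to 0.0398 (exact permutation, adjusted p = 0.00435 and 0.00712). Both pairs follow the single-gene results, in which Gabrb2 rose and Grik2 fell while their partners were not called.

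Within AMPA receptor genes, Gria3 relative to Gria2 fell in striatum in both comparisons (log2 -0.15 and -0.08, exact permutation, adjusted p = 0.00327 and 0.0327). Gria1 relative to Gria2 rose in Q140 Polq+/- mice (log2 0.10, exact adjusted p = 0.00804) and was 0.06 higher in Q140 mice without passing (exact adjusted p = 0.1). Grin2a relative to Grin2b was 0.239 in Polq+/- and 0.279 in Q140 Polq+/- mice (exact adjusted p = 0.00435), and 0.266 and 0.28 in wild-type and Q140 mice, a difference that did not pass (exact adjusted p = 0.449). Gabbr1 relative to Gabbr2 fell from 10.6 to 9.72 and from 10.6 to 9.59 in striatum (exact adjusted p = 0.00804 and 0.0049). In cortex this ratio was far lower and rose from 1.48 to 1.56 in Q140 mice (exact adjusted p = 0.04). Gabrb1 relative to Gabrb2 rose in cortex of Q140 Polq+/- mice, from 0.348 to 0.373 (log2 0.10, exact adjusted p = 0.00327), opposite to striatum. Cortical Grin2a relative to Grin2b fell in Q140 mice (log2 -0.10, exact adjusted p = 0.0177), and Gria1 relative to Gria2 rose (log2 0.07, exact adjusted p = 0.0296).

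**Figure D4:**
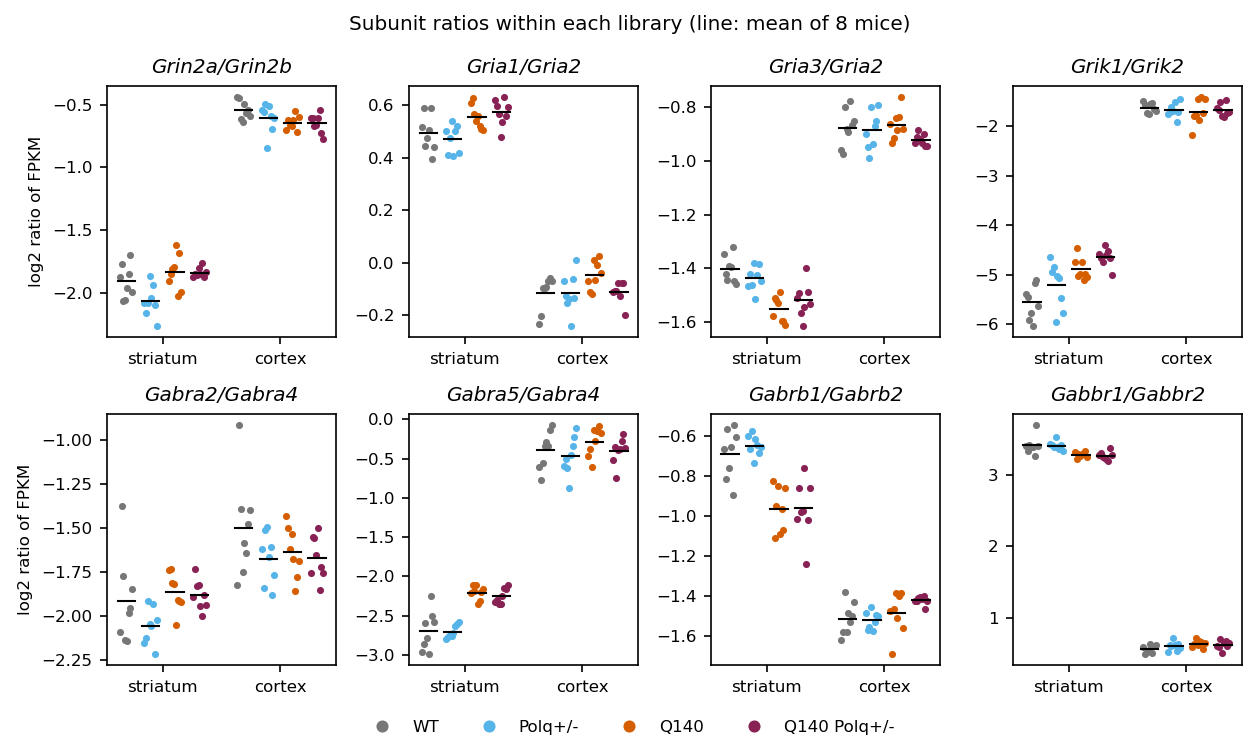
Log2 ratio of FPKM for 8 pairs of subunit genes in each library (vertical axis), by tissue and genotype, with lines at the mean of 8 mice. In striatum Gabra5/Gabra4 has means of -2.69 in wild type and -2.21 in Q140 mice, and Gabrb1/Gabrb2 has means of -0.687 and -0.965.

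Cortex showed little change in receptor genes. Of the 35 members tested there (Gabre was too low), none was called in Q140 against wild type by edgeR (background 0.348%), DESeq2 also called 0, and 7 had an unadjusted p under 0.05. In Q140 Polq+/- against Polq+/- mice 1 was called as lower (background 0.337%, with 0.121% higher and 0.215% lower). In all carriers 4 fell and none rose (background 2.46%, with 0.85% higher and 1.61% lower). Grm4 was the member called in both of the latter. It ranged from 30.4 to 36.9 CPM (median 33.1) in wild type, from 29.4 to 38.6 CPM (33) in Polq+/-, from 27.5 to 34.2 CPM (29.8) in Q140 and from 25.9 to 33.3 CPM (29.1) in Q140 Polq+/- mice, with overlap in each pair. It fell by 0.16 ± 0.03 on the log2 scale in carriers (adjusted p = 0.00124, edgeR). The call in Q140 Polq+/- mice (log2 -0.19, adjusted p = 0.0254) held in 25 of 32 fits that left out 1 library. It ended on FPKM (0.0884), without the sex term (0.146) and with the plate column (0.0941). The plate column is the column recorded for each library, and it was uneven across genotypes. In each tissue, the column with the most wild-type libraries held some of Q140 Polq+/- mice but none of Q140 mice. Column and genotype effects are thus only partly separable. No column held both tissues, and comparisons between tissues were not refitted with the plate column.

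Gabrd had cortical medians of 87.7 CPM (81.3 to 99.3) in wild type, 89.8 CPM (83.8 to 93.5) in Polq+/-, 80.2 CPM (77.3 to 85.2) in Q140 and 83.3 CPM (74.4 to 91) in Q140 Polq+/- mice, and fell by 0.12 ± 0.03 in carriers (adjusted p = 0.00545). Gabbr2 had medians of 469.8 CPM (450.1 to 505), 448.1 CPM (430.6 to 483.4), 438.6 CPM (408.2 to 479.3) and 439.3 CPM (423.2 to 468.5) in the same order, and fell by 0.08 ± 0.02 (adjusted p = 0.0281). Grin2a had medians of 232.5 CPM (226.8 to 278), 232 CPM (216.3 to 254.4), 216.9 CPM (204.9 to 244.4) and 221.6 CPM (208.4 to 244.7), and fell by 0.09 ± 0.02 (adjusted p = 0.0312, edgeR). The Grin2a call held in 23 of 32 fits that left out 1 library (adjusted p = 0.0588 without Q140 male 1). It ended on FPKM, with no low-count filter, without the sex term, with the plate column and with the replicate block, at adjusted p = 0.0889, 0.0504, 0.0888, 0.0997 and 0.0551. The Gabbr2 call ended on FPKM (adjusted p = 0.0816), and the Gabrd call with the plate column (adjusted p = 0.0518). Without 1 cortical library the number called in carriers went from 4 to between 2 and 5, and on FPKM it was 2. Spiny neuron markers in cortex gave 0 of 8 calls in carriers, with a median log2 fold change of -0.06.

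The Q140 effect was then tested for a difference between tissues within mice. It differed for 21 of 36 members, 6 more positive and 15 more negative in striatum, against a background of 32.1% (15.8% more positive, 16.3% more negative) (edgeR, 64 libraries). The largest negative differences among members above 10 CPM in both tissues were those of Grik2 (log2 -0.54 ± 0.03, adjusted p = 1.92e-17), Gabrd (-0.46 ± 0.03, adjusted p = 2.65e-17) and Grm5 (-0.33 ± 0.03, adjusted p = 5.62e-13). Gabrd and Grm4 fell in both tissues but more in striatum. Gabbr2 had a positive difference (0.13 ± 0.04, adjusted p = 0.00882), being lower in cortex of carriers and not called in striatum. On FPKM 10 differences were positive and 11 negative.

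No member was called for Polq. In striatum 0 members differed between Polq+/- and wild-type mice (background 0.0493%) or between Q140 Polq+/- and Q140 mice (background 0.0547%), and 0 showed an interaction of Q140 and Polq (background 0%) by edgeR or DESeq2. An unadjusted p under 0.05 was reached by 3 members (Grik1, Gabrb1 and Grin2b), 1 member (Gabrd) and 0 members. Among the 28 members with a mean of at least 10 CPM in striatum, the 95% intervals for Polq+/- against wild type lay between -0.29 (Gabra2) and 0.33 (Grin2b), both genes in which 1 wild-type library stood apart (Gabra2 in female 2, Grin2b in male 3). Those for Q140 Polq+/- against Q140 lay between -0.22 (Gabra2) and 0.23 (Grin3a). Those of the interaction lay between -0.36 (Grin2b) and 0.32 (Grin3a). In cortex the same 3 comparisons also called 0 members by both tools (backgrounds 0.0442%, 0.0552% and 0%), with 3, 0 and 1 at an unadjusted p under 0.05.

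Genes that work with these receptors were counted in striatum of carriers, against the background of 44.8%. Of 18 AMPA receptor auxiliary genes 9 fell and 6 rose. Among them Gsg1l fell by 36.9%, and Cacng4, Cacng2 and Cacng3, members of a family that traffics AMPA receptors, fell by 26.6%, 16.6% and 27.5%. Both kainate auxiliary genes fell: Neto2 by 44.9% (log2 -0.86 ± 0.03, adjusted p = 4.53e-22) and Neto1 by 10.3% (adjusted p = 4.49e-07, edgeR). Of 15 postsynaptic scaffold genes 7 fell and 4 rose, and the 4 with the smallest p all fell. Homer1, which links Grm5 to the scaffold, fell by 44.5%, Shank3 fell by 31.1%, Dlgap3 fell by 27.2% and Dlg4 fell by 18.4%. Neto2, Homer1, Shank3, Dlgap3, Dlg4, Gsg1l, Cacng4 and Cacng2 did not overlap between the 16 carriers and 16 non-carriers. They were picked for the smallest p of their lists in this same comparison. The 4.82% of all genes tested that did not overlap is therefore not a like measure for them.

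On the inhibitory side, 2 of the 6 GABA postsynaptic genes found (of 8 listed) fell and none rose: Clptm1, which restrains GABA-A receptor trafficking, by 13.7%, and Gphn, the gene of the scaffold protein gephyrin, by 6.8%. Iqsec3 was not called (log2 0.15, adjusted p = 0.0621, edgeR). Of 6 GABA-B auxiliary and effector genes 3 rose and 1 fell: the potassium channel genes Kcnj3 and Kcnj9 rose by 36.1% and 8.89%, Kctd8 rose by 26.3% and Kctd16 fell by 13.6%. Of 13 genes of transmitter synthesis and transport 5 were called, 3 of them lower. The background of 44.8% called applies to each of these lists. The glutamate transporter genes Slc1a1 and Slc1a2 fell by 15.5% and 10.1%.

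Gabra2 differed between mice more than between genotypes. In wild-type female 2 it was at 120 CPM in striatum and 88 CPM in cortex, against 71 to 91 CPM and 46.3 to 59.3 CPM in the other 7 wild-type mice. After group means were removed, the striatal and cortical levels of the 32 mice had a Pearson r of 0.773 and a Spearman rho of 0.507. Without the 2 mice farthest in striatum from the mean of their genotype and sex, r was 0.507. Such agreement between tissues was not particular to Gabra2. Spearman's rho was higher for Grik5 (0.606), Gabbr1 (0.548), Grin2c (0.544) and Grin1 (0.543), and lowest for Grm4 (-0.418). Without the 2 farthest mice of each gene, r was 0.671 for Gabbr1, 0.61 for Grik5, 0.585 for Grin1 and -0.186 for Grm4. No p is given, since the gene was singled out after the values of all members were seen.

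**Figure D5:**
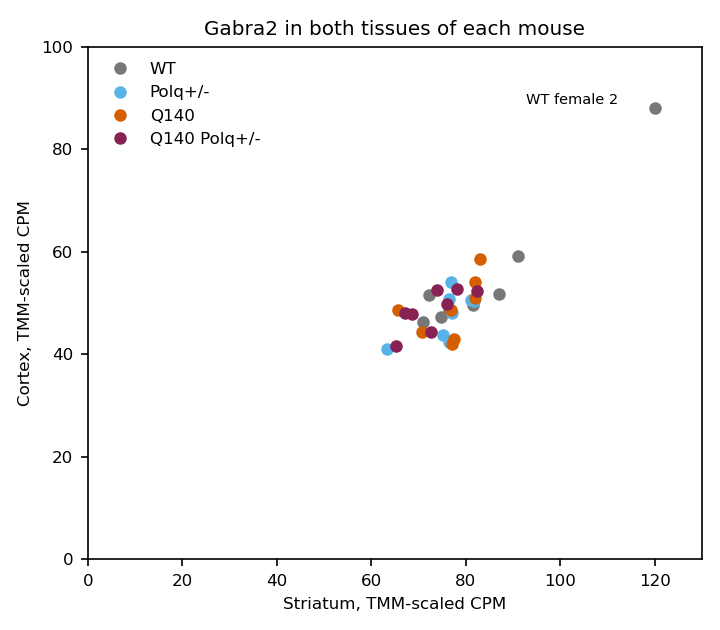
TMM-scaled CPM of Gabra2 in striatum (horizontal axis) and cortex (vertical axis) of each of the 32 mice, coloured by genotype. Wild-type female 2 lies apart at 120 and 88 CPM, and all other mice lie between 63.3 and 91 CPM in striatum and between 41.1 and 59.3 CPM in cortex.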

How the data were processed

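Libraries were made from total RNA with a stranded TruSeq kit, per the labels' protocols. Per the submitters' processing notes, STAR 2.7.5c, SAMtools 1.10, HTSeq 0.12.3 and GRCm38 (mm10) were used. Whether counting used strand is not stated in the sources used. Unnormalized counts per gene and FPKM, both as the authors deposited them, were analysed, with 0 columns of other samples.

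The test of counts was the robust quasi-likelihood test of edgeR 4.0.16 (R 4.3.3), with TMM scaling, the default low-count filter and a term for sex. Each tissue had a single fit of its 32 libraries, and tissues were compared in a fit of 64 libraries that blocked on the mouse. The filter left 18270 genes in striatum, 18116 in cortex and 19091 in both. Benjamini-Hochberg adjustment ran over all genes tested, and an adjusted p under 0.05 was called. Ratios of FPKM were tested by exact two-sided permutation within sex (4900 arrangements). The scripts were tested on simulated data.

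Alternatives were DESeq2 1.42.0, its size factors, limma 3.58.1 on log2 FPKM with a pseudocount of 0.1 or 1, other filters and covariates, and leaving out libraries. Same-numbered mice correlated little (over 0.1 in 16 of 48 pairs in each tissue), so numbers were not used as pairs. Members, lists and alternatives were chosen with earlier results of these data known. Values are given in full for up to 4 members per class with the smallest p in striatal carriers, for members called in cortex, for Polq or for the interaction, and for up to 4 partners per list, some of which are not reported here. Dlg2 has 2 gene IDs, and the one with more counts was used.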

Additional observations from a re-analysis of the deposited data

Results flagged for a closer look

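A library value is given here when its gap to the next mouse was large against the range of its group of 8 (Dixon's 95% limit). Of 265 groups of a gene, tissue and genotype examined, 29 held such a value, and chance gives about 1 in 20. All values are TMM-scaled CPM.

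Striatal wild-type male 3 had low values of 6 members. Grin2b was at 312 against 547 to 618 in the other 7 mice, Grin2a at 69.3 against 98.8 to 116, and Gabrb1 at 97.8 against 141 to 152. Gabrb2 was at 65.5 against 103 to 121, Gabbr1 at 904 against 992 to 1057, and Gabbr2 at 60.3 against 80.1 to 89.1. Striatal wild-type male 2, the library with cerebellar granule cell markers, had high values of 5 members: Gria4 at 113 against 83.8 to 93.4, Grik4 at 12 against 7.45 to 9.6, Grin2c at 89.2 against 56.3 to 67.6, Grin2d at 12.5 against 7.53 to 8.92, and Grm8 at 11.3 against 6.47 to 8.55. The part of those cells in these values was not tested.

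Gabra2 of wild-type female 2 stood apart in striatum (120 against 71 to 91) and in cortex (88 against 46.3 to 59.3), and that of Polq+/- male 3 in striatum (63.3 against 75.1 to 81.7). Other striatal values were those of Gria1 (581) and Grm7 (98.1) in Polq+/- female 1, Gabbr2 (90.1) in Polq+/- male 4 and Gabra3 (34.4) in Q140 female 3. In cortex, wild-type female 3 had 278 CPM of Grin2a and 589 of Grin2b, against at most 237 and 490 in the other wild-type mice. Other cortical values of wild-type mice were those of Grik5 in male 1 (201), Grin1 in female 4 (837) and Grin2d in female 2 (22.6). Among the remaining cortical libraries, Grin1 stood apart in Q140 male 3 (851), Grm5 in Polq+/- female 4 (182) and Gabrg3 in Polq+/- female 3 (26.7). In Q140 Polq+/- mice it was Grid1 in female 3 (72.7), Gabra5 in the same mouse (35.9) and Grik2 in male 1 (36.9).

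The Q140 carrier effect differed between striatum and cortex for 21 members (edgeR, within mice), given here as striatum minus cortex on the log2 scale. It was more negative in striatum for Grin3b (-0.764), Grm2 (-0.732), Grik2 (-0.541), Gabrd (-0.455), Grm5 (-0.326), Grm4 (-0.256), Grid1 (-0.241) and Gabra4 (-0.211). Smaller negative differences were those of Grik5 (-0.197), Grm3 (-0.174), Grin2c (-0.13), Grin1 (-0.125), Gria3 (-0.115), Gria4 (-0.0945) and Gabbr1 (-0.0556). It was more positive for Grm8 (0.394), Gabrb2 (0.346), Grik4 (0.309), Gabra5 (0.172), Gabbr2 (0.126) and Gabra3 (0.124).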

How the results depend on the processing

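Leaving out 1 library at a time gave 18 to 21 members called in striatum of Q140 against wild-type mice, 17 to 20 in Q140 Polq+/- against Polq+/- and 23 to 25 in carriers, and 15 to 18 of the subunit ratios. In cortex the ranges were 0 to 1 (1 without wild-type female 4), 0 to 1 (0 without Polq+/- female 1) and 2 to 5 (2 without Polq+/- female 1), and for Polq and the interaction 0 to 0 in both tissues. In cortex of Q140 Polq+/- against Polq+/- mice 0 were called on FPKM with either pseudocount, without the sex term and with the plate column as a covariate. In cortical carriers 2 were called on FPKM with either pseudocount and with the plate column. With sex and replicate number as a replicate block, the striatal counts were 6 higher and 13 lower, 4 and 15, and 8 and 16, the cortical counts were 1, 1 and 3, and 16 ratios were called. Same-numbered mice had a median correlation of 0.0351 in striatum and 0.0386 in cortex, so this block is not a pairing.

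On FPKM with 0.1 or 1 added, some small striatal differences in carriers changed sign: Gria2 to 0.063 and 0.0621, Grin2a to 0.0638 and 0.0545, Grm7 to 0.022 and 0.0205, Gabrb1 to 0.0684 and 0.0625, and Gabrq to 0.0321 and 0.00777. So did Gabbr1 in Q140 against wild type (0.00495 and 0.00491) and between tissues (0.00167 and 0.00163), and Grin2a in Q140 (0.0624 and 0.0526) and in Q140 Polq+/- mice (0.0651 and 0.0564). Gabrb1 in carriers was also positive without a filter (0.000327), with the replicate block (0.000203) and without the 4 mice of low Polq (0.0126), Gabrq without the 3 libraries that stand apart (0.0579), and Grin2a in Q140 mice with the plate column (0.0312). Leaving out 1 library at a time gave both signs, with ranges in carriers of -0.0124 to 0.00794 for Gria2, -0.0354 to 0.00793 for Grin2a, -0.0288 to 0.00811 for Gabrb1 and -0.0927 to 0.0703 for Gabrq. For Grin2a the range was -0.0717 to 0.0206 in Q140 and -0.0225 to 0.014 in Q140 Polq+/- mice. The cause was not tested. Precision is lowest for Grin3b, Grm2, Gabre and Gabrq, which had few counts per striatal library.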
